A study of Mus musculus with 4 samples.

Results

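Cycling B-lineage cells were B cells that carried the proliferation genes Mki67 and Top2a, sorted from the spinal cord of uninjured and injured mice. A cell was taken as a B cell where Cd79a and Cd79b, the signaling chains of the B cell receptor, summed to at least 500 CPM (a gene's reads scaled to the same total of reads in every cell) and Csf1r, a receptor of myeloid cells, was under 500 CPM. A B cell was taken as cycling where Mki67 and Top2a summed to at least 50 CPM. This gave 72 cycling cells among 591 B cells, out of 1825 CD45+ cells in the table. They were compared with the 405 B cells that held 0 reads of both genes, called 0-read B cells here, while the 114 B cells with reads under 50 CPM stood between them.

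CD45+ cells came from adult female Swiss Webster mice, either uninjured or at 7 or 60 days post-injury (dpi) after a contusion at vertebral level T9. The meninges were removed and the cords of 6 animals went into each pool, so that a condition had a single library, and nothing was compared between conditions with a test. The mice were not perfused, so blood cells could be present, and the sort on CD45 high and low cells favored small cells of low granularity. No genotype or transgene differed between the groups. By the study's methods injured mice had surgery under isoflurane with lidocaine, Buprenex and Baytril given around it, which cannot be told apart from the injury, and cells from 3 dpi are not part of the values given here. The libraries held 426 uninjured, 454 7 dpi and 945 60 dpi cells, with median reads per cell of 554836, 663734 and 287134. Reads are not molecules in this kit, so all intervals below, which have a level of 95%, cover counting error only.

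The label of the 7 dpi library was at odds with its sex-linked genes. After every cell had been thinned at random to 50000 reads, Xist, the RNA that coats the inactive X chromosome of female cells, had a read in 14 of 24 uninjured B cells, 0 of 42 at 7 dpi and 227 of 511 at 60 dpi. Reads of any of 4 genes on the Y chromosome, namely Uty, Kdm5d, Eif2s3y and Ddx3y, were present in 0, 19 and 35 B cells, respectively. Among cycling cells, Xist was read in 1 of 1, 0 of 5 and 35 of 65, and a Y-linked gene in 0, 2 and 4. The 60 dpi library, also labelled female, was mixed: of its 35 B cells with a Y-linked read 18 also had an Xist read, as did 3 of the 4 such cycling cells. Values of the genes called, with Hist1h2ap for the histone copies, are therefore given for each library. Of the cell barcodes, 205 occurred in more than 1 library, and 17 of the 72 cycling cells carried such a barcode. The matching share over all cells was not counted, and a link between shared barcodes and the sex-linked reads was not tested.

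Early precursors with a newly rearranged heavy chain pair it with the surrogate light chain (Igll1, Vpreb1 and Vpreb2) as the pre-B cell receptor (pre-BCR) and go through a burst of division, and mature B cells divide again after contact with antigen. Ki-67, the product of Mki67, coats the chromosomes of cells in the cycle and is lost in resting cells, and topoisomerase II alpha, the product of Top2a, untangles DNA as chromosomes condense. DNA replication enzymes are made for S phase, while mitotic cyclins, kinases and kinetochore proteins are made for G2 and mitosis (G2/M).

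The promoters of 6 genes are shown because Mki67 and Top2a chose the cells and Cenpf, Hmgb2, 2810417H13Rik (RefSeq Pclaf) and H2afz (RefSeq H2az1) were among the genes that rose in them. Each window runs from 250 bases before to 50 bases after the start site in GRCm38.p6, is credited to RefSeq and is written 5′ to 3′ on the strand of the gene. The windows are Mki67 at chr7:135716330-135716629 (minus strand), Top2a at chr11:99024140-99024439 (minus), Cenpf at chr1:189688037-189688336 (minus), Hmgb2 at chr8:57511593-57511892 (plus), 2810417H13Rik at chr9:65890073-65890372 (plus) and H2afz at chr3:137864237-137864536 (plus). Capitals mark letters that matched, on either strand, the cell cycle homology region (CHR, TTTGAA or TTCGAA), the CCAAT box (CCAAT) or an E2F motif (TTTGGCGC, TTTCCCGC, TTTCGCGC or TTTGCCGC).
Mki67: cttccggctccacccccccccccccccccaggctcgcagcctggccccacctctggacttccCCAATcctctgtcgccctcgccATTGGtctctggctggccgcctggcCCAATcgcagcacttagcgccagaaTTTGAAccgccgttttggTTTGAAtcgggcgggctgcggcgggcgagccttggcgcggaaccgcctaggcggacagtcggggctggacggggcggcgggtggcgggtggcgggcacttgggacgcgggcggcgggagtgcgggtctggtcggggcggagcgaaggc
Top2a: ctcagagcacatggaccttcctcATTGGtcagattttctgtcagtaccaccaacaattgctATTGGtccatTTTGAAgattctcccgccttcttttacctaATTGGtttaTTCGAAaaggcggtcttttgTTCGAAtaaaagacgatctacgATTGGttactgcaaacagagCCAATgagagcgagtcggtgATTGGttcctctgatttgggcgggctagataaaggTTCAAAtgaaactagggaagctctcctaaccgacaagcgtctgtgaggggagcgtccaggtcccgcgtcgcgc
Cenpf: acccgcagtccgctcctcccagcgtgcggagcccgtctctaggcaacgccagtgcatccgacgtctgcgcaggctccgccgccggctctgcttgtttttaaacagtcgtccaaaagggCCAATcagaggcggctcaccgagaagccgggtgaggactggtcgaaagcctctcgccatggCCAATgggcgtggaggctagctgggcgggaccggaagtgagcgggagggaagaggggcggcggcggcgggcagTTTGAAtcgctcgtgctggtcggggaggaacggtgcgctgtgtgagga
Hmgb2: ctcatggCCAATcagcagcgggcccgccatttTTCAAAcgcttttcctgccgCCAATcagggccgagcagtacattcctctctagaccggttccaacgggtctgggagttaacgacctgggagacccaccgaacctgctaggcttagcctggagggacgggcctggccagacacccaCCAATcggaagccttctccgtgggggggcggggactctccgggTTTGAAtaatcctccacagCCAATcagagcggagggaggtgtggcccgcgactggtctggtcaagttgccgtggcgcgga
2810417H13Rik: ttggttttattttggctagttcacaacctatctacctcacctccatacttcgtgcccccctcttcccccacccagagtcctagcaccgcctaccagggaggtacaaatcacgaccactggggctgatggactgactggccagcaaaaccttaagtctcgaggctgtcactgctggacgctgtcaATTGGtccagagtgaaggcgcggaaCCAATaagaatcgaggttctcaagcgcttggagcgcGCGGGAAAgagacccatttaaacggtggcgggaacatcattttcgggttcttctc
H2afz: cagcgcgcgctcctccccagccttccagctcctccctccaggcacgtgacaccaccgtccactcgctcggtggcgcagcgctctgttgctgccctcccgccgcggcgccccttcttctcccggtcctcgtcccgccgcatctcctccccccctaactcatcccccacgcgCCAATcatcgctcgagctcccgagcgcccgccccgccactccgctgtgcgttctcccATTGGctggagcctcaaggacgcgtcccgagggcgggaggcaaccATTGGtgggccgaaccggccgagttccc

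The CHR letters stood at 2 positions in the Mki67 window, 4 in Top2a, 1 in Cenpf and 2 in Hmgb2, and at 0 in 2810417H13Rik and H2afz. All 6 windows held the CCAAT letters, and an E2F motif was found only in 2810417H13Rik, at -5 from the start site. No match of a motif overlapped a match of another, and TTCGAA, which reads the same on both strands, was counted once. Over all 32851 RefSeq promoters of this length, 19.2% held the CHR, 37.4% the CCAAT box and 2.26% an E2F motif. Of 49 promoters of the G2/M genes (45 of 50 genes matched), 69.4%, 73.5% and 6.12% held them, against 17.1%, 65.7% and 37.1% of 35 promoters of the S phase genes (31 of 42 matched). These are counts of letters in the sequence and not of bound sites.

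Cycling cells made up 1 of 25 B cells in the uninjured cord (4%, exact interval 0.101–20.4%), 5 of 42 at 7 dpi (11.9%, 3.98–25.6%) and 66 of 524 at 60 dpi (12.6%, 9.88–15.7%). With 1 library per condition, and 25 and 42 B cells in the uninjured and 7 dpi libraries, these shares are not compared between conditions. The share at 7 dpi was 1 of 23 (4.35%) with a stricter B cell gate, and the uninjured share was 1 of 8 (12.5%) without cells that held markers of other cell types. Of all CD45+ cells they were 0.235%, 1.10% and 6.98%, beside B cell numbers of 25, 42 and 524.

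The same cut was then applied to cells that were not B cells. Among cells with Csf1r at or over 500 CPM, 1 of 260 uninjured cells (0.385%), 8 of 262 at 7 dpi (3.05%, 1.33–5.93%) and 7 of 93 at 60 dpi (7.53%, 3.08–14.9%) passed it. Among cells gated on Cd3 genes, 6 of 74 (8.11%, 3.03–16.8%) passed at 60 dpi, 1 of 5 at 7 dpi and 0 of 17 uninjured cells, which allows a share of up to 17.6%. At 60 dpi the intervals of B cells, Csf1r cells and Cd3 cells overlapped.

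Reads of either gene at any level were also found in the other cells. At 60 dpi they occurred in 33.2% of B cells (29.2–37.4%), 30.1% of Csf1r cells (21.0–40.5%) and 31.1% of Cd3 cells (20.8–42.9%), at median depths of 287398, 285681 and 354084 reads. After thinning the shares at 60 dpi were 21.5%, 16.1% and 16.9%, with overlapping intervals. At 7 dpi the share was 26.2% of B cells (13.9–42.0%), 14.9% of Csf1r cells (10.8–19.8%) and 2 of 5 Cd3 cells (40%, 5.27–85.3%). After thinning it was 19.0% (8.60–34.1%), 6.13% (3.54–9.76%) and 1 of 5, respectively. The intervals at 7 dpi overlapped before and after thinning. In the uninjured library the share was 4% of B cells, 1.15% of Csf1r cells and 0 of 17 Cd3 cells. At 60 dpi the share of B cells with any read was thus at the level of the other cells and is not taken as a share of cycling cells, and the cells over the cut were looked at for other cell cycle genes.

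**Figure D1:**
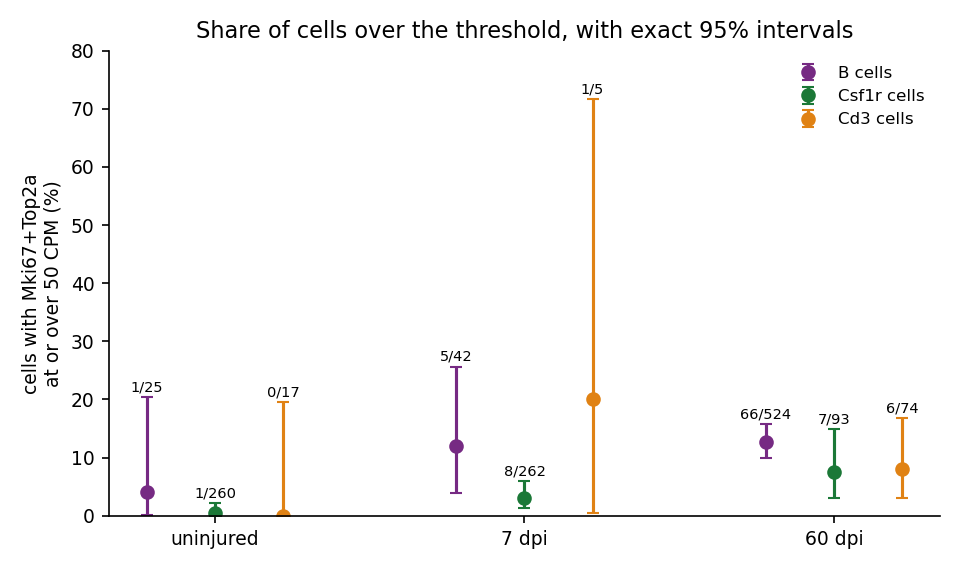
Share of cells (%, vertical axis) with Mki67+Top2a at or over 50 CPM in each library (horizontal axis) among B cells, Csf1r cells and Cd3 cells, with exact 95% intervals and cell counts above. B cells stood at 4%, 11.9% and 12.6%, and at 60 dpi their interval overlapped those of Csf1r cells (7.53%) and Cd3 cells (8.11%).

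The values that chose the members differed widely. The sum of Mki67 and Top2a ran from 52.5 to 7522 CPM, with a median of 551 and quartiles of 185 and 1374. The members just inside the cut held 52.5, 53.0 and 54.4 CPM and the B cells just outside it 49.6, 47.4 and 47.3 CPM. Both genes had reads in 26 members, Mki67 alone in 25 and Top2a alone in 21. The 1 uninjured member held Top2a at 3306 CPM and no Mki67, and the 5 members at 7 dpi had sums from 533 to 1676 CPM with a median of 1006.

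**Figure D2:**
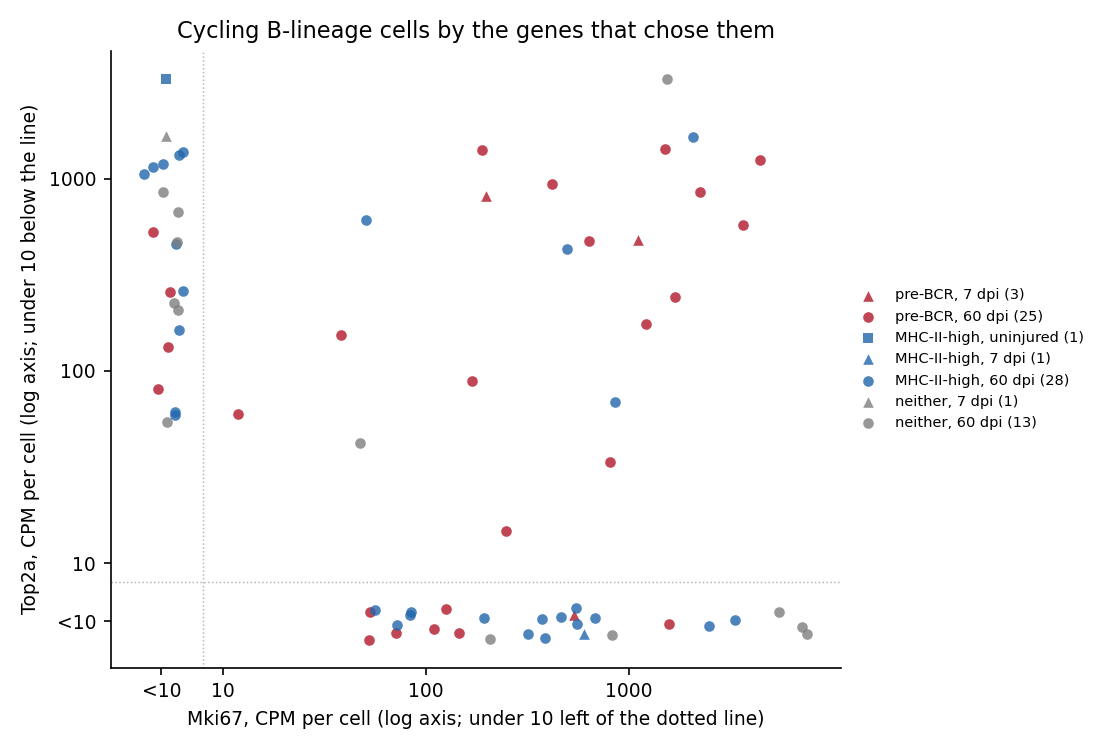
Top2a against Mki67 (CPM per cell, log axes, with values under 10 CPM drawn beyond the dotted lines) for the 72 cycling cells, colored by B cell stage and shaped by library, with cell numbers in the legend. Of the 72, 26 had reads of both genes, 25 of Mki67 alone and 21 of Top2a alone, and 14 of the 24 with both at 60 dpi were pre-BCR cells.

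Whether these cells carried more of the cell cycle program was examined with 95 other genes, 43 of S phase and 52 of G2/M, counted as genes with a read in the thinned cell. A 0-read B cell held a median of 6 of them (392 cells, range 0–31), and 95% of such cells held at most 14. Cycling cells held a median of 14 (71 cells, range 2–59). Of these, 35 (49.3%, 37.2–61.4%) were above 14 and 18 (25.4%, 15.8–37.1%) above every 0-read cell, but 17 (23.9%, 14.6–35.5%) held 6 or fewer. The B cells between the groups had a median of 6, and 7 of 114 (6.14%, 2.5–12.2%) were above 14.

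The number of cell cycle genes went with how many of the choosing genes were read. Cells with both held a median of 36 (range 10–59), cells with Mki67 alone 10 (3–50) and cells with Top2a alone 7 (2–48). Their median depths before thinning were 768048, 248724 and 430740 reads, and the part of depth in this order was not tested. By the sum of both genes, medians were 10 in 20 cells from 50 to under 200 CPM, 15 in 25 cells from 200 to under 1000 CPM and 30 in 26 cells at 1000 CPM and over. Even the last bin ran from 2 to 59. Thus 35 of 71 members held more of these genes than 95% of 0-read cells did and the rest did not, and the name cycling is used here for every cell over the cut.

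**Figure D3:**
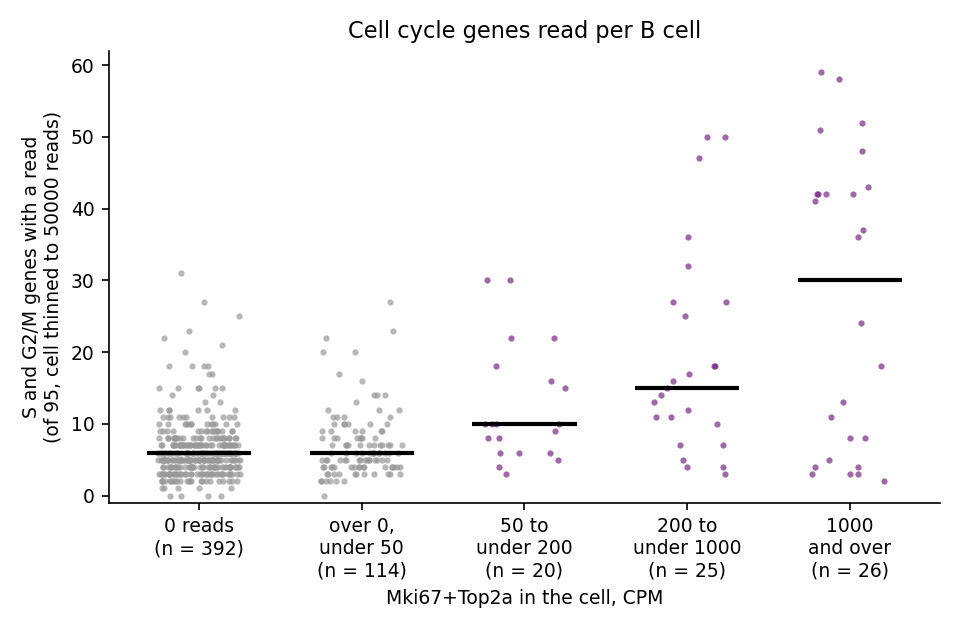
Number of 95 S and G2/M genes with a read in each B cell thinned to 50000 reads (vertical axis) by the sum of Mki67 and Top2a in the cell (CPM, horizontal axis), with a bar at each median. The median was 6 in 0-read cells and in cells under 50 CPM, and 10, 15 and 30 in the 3 bins of cycling cells, which overlapped the 0-read cells in part.

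Single cells showed how unequal the members were. The uninjured member had reads of 4 of the 95 genes after thinning, and its G2/M reads were nearly all of Hn1 (1881 CPM) and Cenpa (1392 CPM), a microtubule-associated protein and the centromeric histone H3. At 7 dpi, 3 of the 5 members were pre-BCR cells. Before thinning, these 3 had reads of 29, 41 and 12 S phase genes and 30, 29 and 39 G2/M genes, whereas the other 2 had 6 and 1 S phase genes and 8 and 4 G2/M genes. At 60 dpi the number of S phase genes ran from 1 to 31 (median 8) and that of G2/M genes from 2 to 35 (median 9).

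In CPM, the S phase genes of a cycling cell summed to a median of 2054 and the G2/M genes to 4268, against 627 and 1568 in 0-read B cells. G2/M reads outnumbered S phase reads in 56 of the 72 members and S phase reads were more in 16. Across the 72 members, which share 3 libraries and the same cut, the sums went together with a Spearman rho of 0.49.

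Genes were then compared between cycling and 0-read B cells. Reads were summed per library and group, and the sums were tested with edgeR's quasi-likelihood test with the library as a block. At least 5 cells per group were required, so the 7 dpi library (5 against 31 cells) and the 60 dpi library (66 against 350) entered and the uninjured library, with 1 cycling cell, did not. Of 12423 genes, 17 were higher (0.137%) and 1 was lower (0.00805%) in cycling cells at an adjusted p under 0.05. Without adjustment 182 and 230 genes had a p under 0.05. The test rests on 4 sums with 1 residual degree of freedom and cannot be run on either library alone. On counts simulated at the fitted spread it called 2% of genes changed 8-fold, so genes that were not called may still differ. The median fitted log2 change of all genes was -0.43, and -0.30 with other size factors (RLE), so a change is to be read against that level.

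Cycling cells also held reads of more genes. At 60 dpi they held a median of 2018 genes per thinned cell against 1511.5 in 0-read B cells, and at 7 dpi 2633 against 1529. Of the 12423 genes, 72.7% were read in a larger share of cycling than of 0-read cells at 60 dpi, which is the level to hold single shares against.

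The G2/M genes gave the largest change. Cenpf, a kinetochore protein of mitosis (chr1:189640606-189688086, GRCm38), stood at 482 CPM (exact Poisson interval 466–497) in cycling and 0.0628 (0.00760–0.227) in 0-read cells at 7 dpi, and at 149 (145–153) and 0.633 (0.499–0.792) at 60 dpi. These intervals were apart in both libraries, but they cover counting error of summed reads and not the spread between cells. At 7 dpi 5 cycling cells stand behind them. Its fitted log2 change was 10.06 ± 1.42 (SE; edgeR adjusted p = 0.0146), a size that depends on the prior count since the 0-read group at 7 dpi had next to no reads. It was read in 23.1% of cycling and 3.25% of 0-read cells at 60 dpi, and in 2.15% of Csf1r cells and 4.23% of Cd3 cells. In the uninjured library it was at 0 in the cycling cell and at 5.59 CPM in 0-read cells.

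Hmgb2, a chromatin protein that stays on mitotic chromosomes (chr8:57511907-57515999), stood at 3916 (3872–3961) against 480 CPM (473–488) at 7 dpi and 2222 (2208–2237) against 569 (565–574) at 60 dpi. It rose by 2.52 ± 0.28 on the log2 scale (edgeR adjusted p = 0.00370). It was read in 84.6% of cycling and 53.8% of 0-read cells at 60 dpi, beside 55.9% of Csf1r cells and 66.2% of Cd3 cells. The uninjured member was the exception, with 17.4 CPM (7.00–35.9) against 340 CPM (332–349).

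Of 50 G2/M genes tested, Cenpf and Hmgb2 were higher at adjusted p under 0.05, none was lower, and 26 were higher without adjustment. At 60 dpi 42 of the 50 were at least 2-fold higher in cycling cells, on log2 ratios of CPM plus 1, and 0 at least 2-fold lower, where 15.6% of all genes were higher and 24.3% lower by that much. Their median log2 ratio was 2.36, against -0.12 for all genes. At 7 dpi 41 were at least 2-fold higher and 2 lower (20% and 35.8% of all genes), and 36 were higher in both libraries (4.41% of all genes). Members were selected on Mki67 and Top2a, so such counts describe which genes were read beside them.

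Several G2/M genes did not pass the test on all reads but showed the same order of values, and Birc5, Ccnb2, Cdca8 and Hmmr passed it when every cell was thinned to 50000 reads before summing (log2 changes of 6.82, 6.08, 6.33 and 8.07). Birc5 (survivin, of the chromosomal passenger complex) stood at 398 against 11.6 CPM at 60 dpi and was read in 32.3% against 9.17% of cells. Ccnb2, a cyclin of mitosis, stood at 236 against 14.5 CPM, and Cdca8 (borealin) at 207 against 8.63 CPM. Smc4, a condensin subunit, was read in 53.8% against 21.6% of cells, at 580 against 123 CPM. In these 4 genes no single cycling cell gave more than 31.3% of the reads. For Hmmr, a spindle protein, 56.2% of the reads in cycling cells at 60 dpi came from a single cell (115 against 0.250 CPM). Anp32e, Kif20b, Rangap1 and Gas2l3 were under 2-fold at 60 dpi, with log2 ratios of 0.44, 0.14, 0.09 and 0.09.

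Among genes of DNA replication the clearest was 2810417H13Rik (Pclaf, a PCNA-binding factor; chr9:65890237-65903266). It stood at 1353 (1327–1379) against 70.2 CPM (67.3–73.2) at 7 dpi and 821 (812–830) against 50.2 (48.9–51.4) at 60 dpi, and it was at 0 in both groups of the uninjured library. It rose by 4.18 ± 0.41 on the log2 scale (edgeR adjusted p = 0.00320). At 60 dpi it was read in 41.5% of cycling cells, 8.88% of 0-read cells, 8.60% of Csf1r cells and 5.63% of Cd3 cells.

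None of the 42 S phase genes tested passed the adjusted threshold in edgeR, and 14 were higher and 0 lower without adjustment. At 60 dpi 36 were at least 2-fold higher and 2 at least 2-fold lower, with a median log2 ratio of 2.18. Over all genes these shares at 60 dpi were 15.6% and 24.3%. At 7 dpi 26 were higher and 3 lower (20% and 35.8% of all genes), and 23 were higher in both (4.41%). Tyms, which makes thymidylate, stood at 357 against 35.3 CPM at 7 dpi and 303 against 24.7 CPM at 60 dpi. Rrm2, the regulated subunit of ribonucleotide reductase, stood at 201 against 71.0 CPM and 569 against 23.5 CPM. Each was read in 32.3% of cycling cells at 60 dpi, against 5.33% and 6.51% of 0-read cells. Pcna, the sliding clamp, was less apart, with 580 against 161 CPM and 50.8% against 32% of cells. Rad51ap1 and Prim1, of repair and of primer synthesis, had log2 ratios of 4.98 and 4.79 at 60 dpi, while Polr1b (-1.70) and Wdr76 (-1.19) went the other way on few reads.

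Shares of cells repeated this split. At 60 dpi the median S phase gene was read in 20% of cycling cells, 5.47% of 0-read cells, 4.30% of Csf1r cells and 3.52% of Cd3 cells, and the median G2/M gene in 15.4%, 2.96%, 3.23% and 2.82%. The share was larger in cycling than in 0-read cells for 40 of 42 S phase and 49 of 50 G2/M genes, against 72.7% of all genes.

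**Figure D4:**
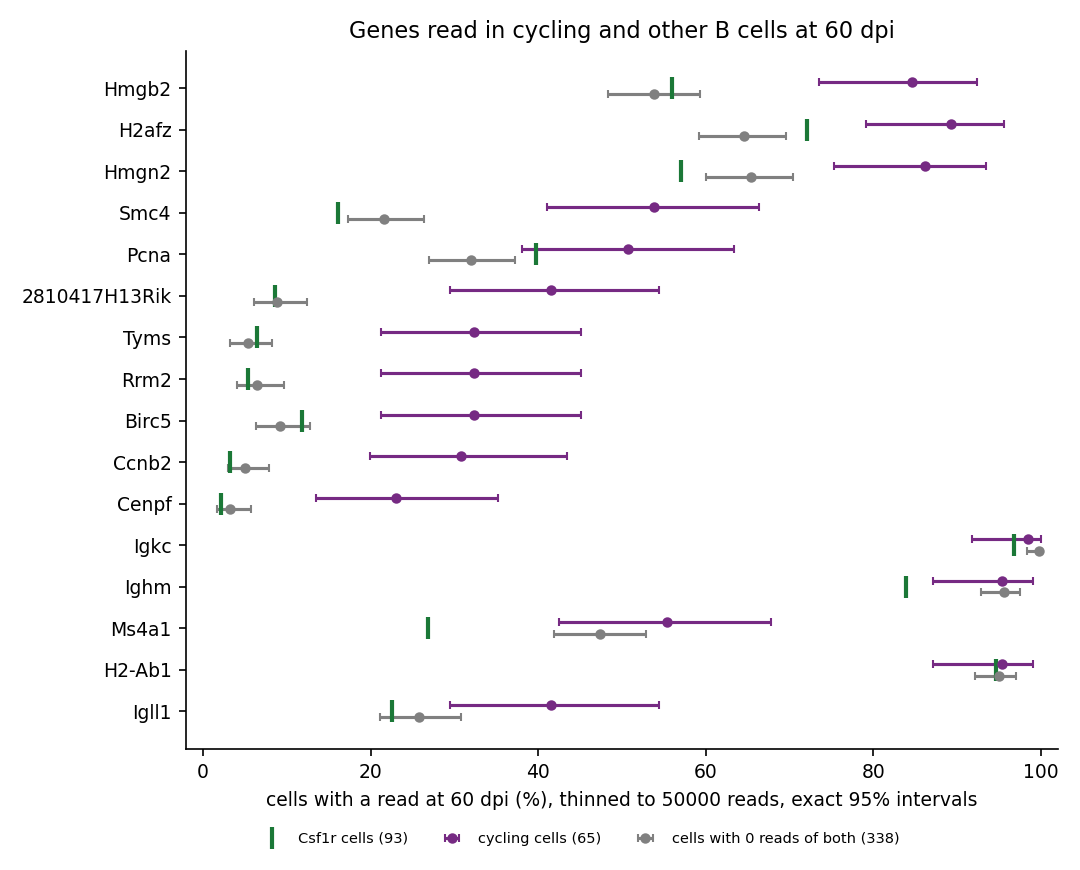
Share of cells with a read at 60 dpi (%, thinned to 50000 reads, horizontal axis) for 16 genes in cycling and 0-read B cells, with exact 95% intervals, and in 93 Csf1r cells (ticks). Cell cycle genes such as Smc4 (53.8% against 21.6%) and Cenpf (23.1% against 3.25%) were apart, while Igkc, Ighm and H2-Ab1 were read in like shares of both.

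Chromatin genes made up most of the other calls. H2afz, a variant of histone H2A (chr3:137864487-137866922), stood at 3638 (3596–3681) against 1204 CPM (1192–1216) at 7 dpi and 3370 (3352–3388) against 889 (884–894) at 60 dpi. It rose by 1.79 ± 0.21 on the log2 scale (edgeR adjusted p = 0.00370) and was read in 89.2% of cycling and 64.5% of 0-read cells at 60 dpi, beside 72.0% of Csf1r and 77.5% of Cd3 cells. At 60 dpi H2afv stood at 1168 against 402 CPM, Hmgn2 at 1843 against 482 CPM and Ptma at 5761 against 2702 CPM, and at 7 dpi at 2374 against 674, 2051 against 740 and 6534 against 2935 CPM. The variant H2afv rose by 1.70 ± 0.27 (edgeR adjusted p = 0.0345) and Hmgn2, a nucleosome-binding protein, by 1.73 ± 0.27 (edgeR adjusted p = 0.0315). Ptma (prothymosin alpha) rose by 1.15 ± 0.15 (edgeR adjusted p = 0.0103). In the uninjured member H2afz, H2afv and Hmgn2 were at 0, and Ptma was at 514 CPM against 2421 CPM, so these increases were not seen in that cell.

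Of the replication-dependent H2A genes, 15 symbols were tested and 14 had a fitted change above 0, 6 of which were called with log2 changes from 3.69 to 3.76. The copies are nearly identical, so counts of Hist1h2ad, Hist1h2af, Hist1h2ag, Hist1h2ah, Hist1h2ao and Hist1h2ap are uncertain as to the copy. Hist1h2ap stood at 3276 against 125 CPM at 7 dpi and 1532 against 239 CPM at 60 dpi. The remaining higher calls were the processed pseudogenes Gm10182, Gm9800 and Gm10123 and a gene listed only as ENSMUSG00000060214. At 60 dpi Gm10182 stood at 1587 against 379.5 CPM, Gm9800 at 3259 against 1482, Gm10123 at 4236 against 2232 and ENSMUSG00000060214 at 3485 against 921 CPM. At 7 dpi they stood at 1865 against 506, 3999 against 1655, 6063 against 2917 and 4168 against 1382 CPM. The log2 change of ENSMUSG00000060214 was 1.78, beside 1.79 for H2afz. Whether reads of these entries came from similar genes was not tested, so the calls may not all be separate genes. Gm10123 lies outside the rule for named genes and was named after its value was seen.

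Of 21 genes of chromatin and histone variants tested, 3 were called and 10 were higher without adjustment. At 60 dpi 16 were at least 2-fold higher and 0 lower (median log2 ratio 1.54), beside 15.6% and 24.3% of all genes. Stmn1 (stathmin, of microtubule turnover) stood at 452 against 41.1 CPM and Dek at 903 against 268 CPM at 60 dpi. Asf1b, a histone chaperone, was read in 32.3% against 4.44% of cells. Dnmt1, the maintenance DNA methyltransferase, showed no such gap at 60 dpi (60.7 against 66.2 CPM).

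**Figure D5:**
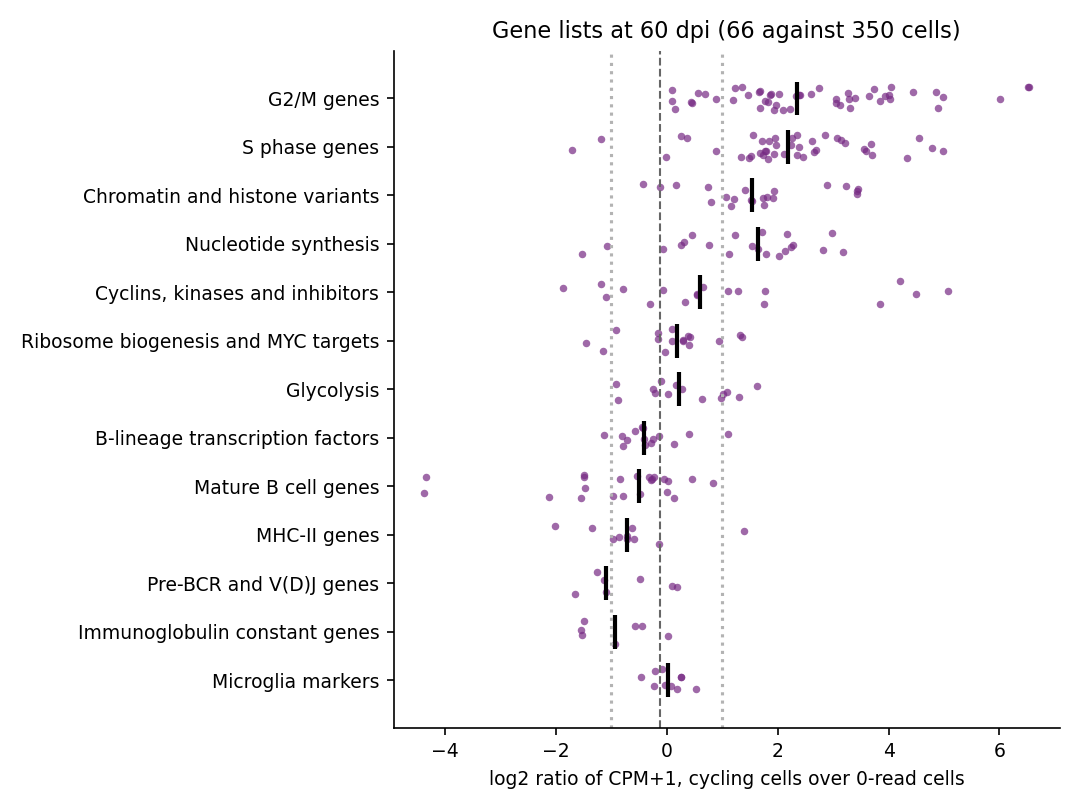
Log2 ratio of CPM plus 1 at 60 dpi between 66 cycling and 350 0-read B cells (horizontal axis) for each gene of 13 lists, with a bar at each list's median, a dashed line at the median of all genes (-0.12) and dotted lines at 2-fold. G2/M genes (median 2.36) and S phase genes (2.18) lay furthest to the right, and microglia markers (0.02) near 0.

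Genes that prepare or drive the cycle were less uniform. Over all genes at 60 dpi, 15.6% were at least 2-fold higher and 24.3% lower. Of 21 genes of nucleotide synthesis, 14 were at least 2-fold higher and 2 lower at 60 dpi (median log2 ratio 1.64), led by Dctpp1 (313 against 33.6 CPM), which clears altered nucleotides. Of 18 cyclins, kinases and inhibitors, 8 were higher and 3 lower (0.60). Ccna2, the S and G2 cyclin, stood at 42.9 against 0.308 CPM, while the D cyclins of B cells were close, Ccnd3 at 190 against 130 CPM and Ccnd2 at 91.0 against 112 CPM. Of 17 cell cycle transcription factors, 6 were higher and 3 lower (0.68). Among them Mybl2 stood at 46.4 against 0.708 CPM, with 83.4% of its reads from a single cell, and Myc at 18.6 against 24.3 CPM. None of these genes passed the adjusted threshold in edgeR, and unadjusted calls among them were 0 for nucleotide synthesis, 1 for cyclins and 0 for transcription factors.

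Growth genes were close to the background over all B cells. Of 16 genes of ribosome biogenesis and MYC targets, 2 were at least 2-fold higher and 2 lower at 60 dpi (0.19), and of 14 glycolysis genes 4 were higher and 0 lower (0.22), where 15.6% of all genes were higher and 24.3% lower. At 7 dpi 5 and 6 of the ribosome genes and 0 and 6 of the glycolysis genes were higher and lower. Of all genes, 20% were higher and 35.8% lower at 7 dpi. Within pre-BCR cells at 60 dpi 8 of the 16 ribosome and MYC genes were higher and 1 lower (median 1.01, with 20.6% of all genes higher). None passed the test in edgeR, with or without adjustment. Npm1, of the nucleolus, stood at 665 against 508 CPM and Ldha at 354 against 228 CPM.

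Malat1, a nuclear RNA, was the only gene lower in cycling cells at adjusted p under 0.05. It stood at 19506 against 39202 CPM at 7 dpi and 24333 against 39830 CPM at 60 dpi, a fall by 0.83 ± 0.09 on the log2 scale (edgeR adjusted p = 0.00320), which is further down than the median gene. In the uninjured library the cycling cell was not lower (55902 against 51345 CPM).

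B cell identity genes were present in the cycling cells. At 60 dpi Igkc, the kappa light chain, was read in 98.5% of cycling and 99.7% of 0-read cells, but also in 96.8% of Csf1r and 98.6% of Cd3 cells, so its share does not mark B cells here. Pax5, the factor that fixes B cell identity, was read in 61.5% of both groups against 12.9% of Csf1r cells and 11.3% of Cd3 cells. Ebf1, another factor of early B cell fate, was read in 49.2% and 43.5% against 14% and 8.45%. Both other cell types were gated on Cd79a and Cd79b summing to under 500 CPM, so gaps in B cell genes follow in part from the gate.

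Mature B cell genes were lower in cycling cells mainly at 7 dpi, without passing the test. Of 22 mature B cell genes, 0 were at least 2-fold higher and 7 lower at 60 dpi (median log2 ratio -0.51), near the 24.3% of all genes that were lower. At 7 dpi 1 was higher and 19 lower, where 35.8% of all genes were lower, and 7 were lower in both, where 11.2% of all genes were. Ms4a1 (CD20) stood at 424 against 759 CPM and Ly6d at 995 against 1964 CPM at 60 dpi. At 7 dpi Ms4a1 was at 0.130 against 397 CPM and Ly6d at 18.5 against 1060 CPM, with 5 cycling cells behind these values. The edgeR adjusted p was 1 for Ms4a1 and 0.855 for Ly6d, and 5 of the 22 genes were lower without adjustment. The 60 dpi count was 13 of 22 without the cycling cell with the most reads (32.2% of all genes lower). Within MHC-II-high cells it was 8 of 22 (33.6% of all genes). It was 12 of 22 within pre-BCR cells (31.5% of all genes) and 16 of 22 within cells of neither kind (38.9%).

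Antigen receptor genes had lower levels in both libraries. Igkc stood at 3802 against 5657 CPM, Ighm at 2107 against 2882 CPM and Iglc2 at 507 against 1460 CPM at 60 dpi, and all 3 were lower at 7 dpi as well (1290 against 4529, 674 against 2242 and 4.14 against 716 CPM). Of 7 immunoglobulin constant genes tested 3 were at least 2-fold lower at 60 dpi (median -0.94), where 24.3% of all genes were. Under the alternatives run, 2 to 5 of the 7 were lower, where 9.88% to 34.6% of all genes were. Within pre-BCR cells 1 of the 7 was lower (31.5% of all genes), within MHC-II-high cells 3 (33.6%) and within cells of neither kind 5 (38.9%). Pre-BCR cells were 3 of 5 cycling and 5 of 31 0-read cells at 7 dpi, and 37.9% and 27.7% at 60 dpi. The part of this makeup in the levels was not tested. Of 10 MHC-II genes, which present antigen to T cells, 1 was higher and 2 lower (-0.72), no more than the 24.3% of all genes lower, with H2-Ab1 at 1268 against 2317 CPM. When every cell was thinned to 50000 reads before summing, 12 genes were lower at adjusted p under 0.05 in edgeR, among them Vpreb1 (log2 change -2.90), Ms4a1 (-2.92), Ly6d (-3.09), Iglc2 (-3.65), Igkc (-1.35), Ighm (-1.26) and H2-Ab1 (-2.05). Whether these genes were called thus depended on thinning.

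Few germinal center genes were read. Mef2b, a factor of germinal center B cells, was at 0 in cycling and 0-read cells at 60 dpi. Of 10 germinal center genes only 4 had enough reads to be tested, and 0 were higher and 3 at least 2-fold lower at 60 dpi. Over all genes 15.6% were higher and 24.3% lower by that much, which is the level for the next lists as well. Of 10 plasmablast genes tested, 1 was higher and 2 lower (-0.22), with Mzb1 at 290 against 246 CPM and Xbp1 at 77.6 against 125 CPM. Of 10 early B cell receptors and factors 0 were higher and 2 lower (-0.04), with Il7r at 324 against 164 CPM. Of 15 B-lineage transcription factors 1 was higher and 1 lower at 60 dpi (-0.42), but 1 higher and 11 lower at 7 dpi (-2.21, with 35.8% of all genes lower). Of 11 apoptosis genes 0 were higher and 4 lower (-0.55). None of these passed the test with or without adjustment in edgeR.

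At 60 dpi cells over the Mki67 and Top2a cut were found in each of 3 groups of B cells, called stages here. At 60 dpi, 150 B cells had Igll1, Vpreb1 and Vpreb2 summing to at least 50 CPM (pre-BCR cells), a further 262 had H2-Aa, H2-Ab1 and H2-Eb1 summing to at least 1000 CPM (MHC-II-high cells), and 112 had neither. Of these, 25 (16.7%, 11.1–23.6%), 28 (10.7%, 7.22–15.1%) and 13 (11.6%, 6.33–19.0%) were cycling, with intervals that overlapped. All 3 intervals also overlapped those of Csf1r cells (3.08–14.9%) and Cd3 cells (3.03–16.8%) over the same cut at 60 dpi. Pre-BCR cells were 37.9% (26.2–50.7%) of cycling and 27.7% (23.1–32.7%) of 0-read B cells. At 7 dpi 3 of 8 pre-BCR cells were cycling, and the uninjured library held 0 pre-BCR B cells.

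The cycle genes read beside Mki67 and Top2a are given by stage, with no test between stages. Both genes were read in 14 of 25 pre-BCR cycling cells (56%, 34.9–75.6%), 6 of 28 MHC-II-high cells (21.4%, 8.30–41.0%) and 4 of 13 with neither (30.8%, 9.09–61.4%). More than 14 of the 95 cell cycle genes were read in 18 of 25 (72%, 50.6–87.9%), 9 of 28 (32.1%, 15.9–52.4%) and 5 of 12 (41.7%, 15.2–72.3%) of them, against 12 of 92 (13%), 3 of 178 (1.69%) and 1 of 68 (1.47%) 0-read cells of the same stage. The median number was 30 (range 6–52) in pre-BCR cycling cells, 9.5 (3–50) in MHC-II-high and 11.5 (4–59) in the others, and 6 in 0-read cells of each stage. Median reads of the cycling cells were 459131, 412824 and 308928, and median genes per thinned cell 2405, 1714.5 and 1956.5. The intervals of pre-BCR and MHC-II-high cells overlapped narrowly, and the part of the number of genes read was not tested. All stages come from the same library, so cells and not samples stand behind these intervals.

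Within the pre-BCR cells 36 of 42 S phase and 42 of 50 G2/M genes were at least 2-fold higher in cycling cells, where 20.6% of all genes were. Within MHC-II-high cells these were 20 and 30 genes (16.8% of all genes), and within the others 25 and 28 (19.6%). Rrm2 stood at 989 against 37.8 CPM in pre-BCR cells, 163 against 16.0 in MHC-II-high cells and 466 against 22 in the others. Cenpf stood at 216 against 1.08, 61.3 against 0.389 and 178 against 0.598 CPM.

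In CPM summed over cells, Rag1, Igll1 and Vpreb1, genes of receptor assembly, were lower in pre-BCR cycling cells than in pre-BCR cells with 0 reads. Rag1, of the V(D)J recombinase, stood at 7.97 (6.67–9.45) against 307 CPM (301–313) and was read in 6 of 25 (24%, 9.36–45.1%) and 28 of 92 cells (30.4%, 21.3–40.9%). Igll1 stood at 1242 against 2514 CPM and Vpreb1 at 759 against 2352 CPM, although both groups had passed the same cut on these genes, and their shares of cells with a read were 92% against 68.5% and 84% against 79.3%. For Igll1 and Vpreb1 levels and shares thus went opposite ways. For Rag1 both were lower, with overlapping intervals of the shares. Over all B cells at 60 dpi, 4 of 7 genes of the pre-BCR and V(D)J recombination were at least 2-fold lower in cycling cells and 0 higher (median -1.10), where 24.3% of all genes were lower. The count of genes lower was 2 of 7 with thinned cells and against all other B cells. By share of cells with a read, 6 of the 7 were higher in cycling than in 0-read cells, where 72.7% of all genes were. None passed the adjusted threshold in edgeR on all reads (3 lower without adjustment), and Vpreb1 passed it with thinned cells.

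Microglia markers were read in cycling cells about as often as in 0-read B cells. At least 3 of 10 microglia markers were over 100 CPM in 38 of 66 cycling cells (57.6%, 44.8–69.7%) and 199 of 350 0-read cells (56.9%, 51.5–62.1%) at 60 dpi, and in 5 of 5 and 28 of 31 at 7 dpi. The summed markers ran from 80 to 18703 CPM in cycling and from 46.1 to 20425 CPM in 0-read cells. T cell markers passed this count in 0 of 66 and 13 of 350 cells, NK cell markers in 1 and 9, granulocyte markers in 8 and 52, and monocyte and macrophage markers in 5 and 25. Hemoglobin and other erythroid genes passed in 13 of 66 (19.7%, 10.9–31.3%) and 38 of 350 (10.9%, 7.80–14.6%), and myelin transcripts in 9 of 66 (13.6%, 6.43–24.3%) and 16 of 350 (4.57%, 2.64–7.32%). The part of the last 2 in the results was not tested. Without any cell that passed such a count, 21 of 169 B cells were cycling at 60 dpi (12.4%, 7.86–18.4%), and 36 S phase and 42 G2/M genes were still at least 2-fold higher. Other counts at 60 dpi moved in these cells, where 34.6% of all genes were lower and 19.6% higher. All 10 MHC-II genes, 16 of 22 mature B cell genes and 8 of 15 B-lineage transcription factors were at least 2-fold lower, and 15 of 18 cyclins, kinases and inhibitors were higher.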

How the data were processed

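The table deposited by the authors held raw counts of reads per gene in each of 1825 cells, not normalized and not corrected for molecules. By the study's methods, reads were split by barcode and mapped to mm10 with STAR and sorted with SAMtools, and the submitters' processing notes name Seurat. The gene annotation was not given in the sources used here. The cells and gene lists were chosen with earlier results of these data known. 0 columns belonged to no library.

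Counts were summed per library and group and tested with edgeR 4.0.16 in R 4.3.3 (TMM factors, filterByExpr, glmQLFit and glmQLFTest, Benjamini-Hochberg adjustment). Mki67, Top2a, Cd79a, Cd79b and Csf1r chose the cells, so these 5 genes got no test. Intervals at 95% are Clopper-Pearson for shares and Poisson for CPM, a count of 0 allows up to 3 counts, and log2 ratios use a pseudocount of 1 CPM. Thinning to 50000 reads left out 1 cycling and 12 0-read cells at 60 dpi and 1 uninjured 0-read cell. Reads per B cell ran from 7714 to 3488066. Doublets were not called, but cells with 3 or more markers of another type over 100 CPM were counted and left out in an alternative. The named genes were all genes of the lists and the 15 largest changes in each direction at adjusted p under 0.05, with at least 50 CPM and a read in 25% of cells. Of the listed symbols, Ighd, Iglc1, Iglc3 and Adgre1 were not found, and older symbols stood for H2ax, H2az1, H2az2, Jchain, Jpt1 and Pimreg. Gene positions are those of GENCODE on GRCm38.

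Alternatives were DESeq2 1.42.0, other scalings, no filter, another comparison group, thinned cells, thresholds of 20 and 100 CPM, a stricter gate and groups without pre-BCR cells or cells with other markers. Tests were tried on simulated counts with 100 genes changed 8-fold and 100 changed 2-fold. At the spread fitted to these data the edgeR test called 2% of the 8-fold and 0% of the 2-fold genes. With a low spread (dispersion 0.05) it called 100% and 23%. A gene or list that did not pass is therefore not shown to be unchanged. Tables were made with Python 3.11.15, numpy 2.4.6, pandas 2.3.3 and scipy 1.17.1, and figures with matplotlib 3.10.9.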

Additional observations from a re-analysis of the deposited data

Results flagged for a closer look

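6 genes of the lists were at least 2-fold apart in opposite directions in the 2 libraries, between cycling and 0-read B cells, and this difference between libraries was not tested. The log2 ratio was -1.63 at 7 dpi and 1.75 at 60 dpi for Cdk4, a kinase of G1 phase, -2.53 and 1.29 for Cdkn2d, an inhibitor of that kinase, and -1.35 and 1.52 for Mcm6, a subunit of the replicative helicase. It was -2.33 and 1.22 for Ctcf, an organizer of chromatin loops, -6.93 and 1.11 for Irf4, a factor of B cell differentiation, and -4.29 and 1.09 for Tpi1, an enzyme of glycolysis. At 7 dpi 5 cycling cells stand behind each value.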

How the results depend on the processing

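The number of genes higher in cycling cells was 17, and it was 103 with DESeq2, 10 with RLE size factors, 43 against all other B cells, 35 with thinned cells and 0 with a threshold of 20 CPM (142 without adjustment). Genes lower numbered 1, and 154 with DESeq2, 2 without a filter, 5 against all other B cells, 12 with thinned cells and 0 with 20 CPM (150 without adjustment). With the uninjured library and its 1 cycling cell added, an alternative chosen after seeing the data, both counts were 0 (34 and 393 without adjustment), and Ptma turned to a log2 change of -0.0465. DESeq2 shared 1 of the 17 genes, and thinned cells and the fit against all other B cells shared all 17. Library size alone gave 18 and a threshold of 100 CPM 12 genes higher. The share at 60 dpi was 17.7% with 20 CPM, and that at 7 dpi was 0% without cells with other markers (0 of 2 B cells) and 4.35% with the stricter gate, and the uninjured share was 12.5% without cells with other markers (1 of 8). The cause of these changes was not tested. For the 18 genes called, 92 of 162 values under alternatives kept their call and direction, 69 lost the call and 1 changed sign.

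At 60 dpi, under all alternatives run, 27 to 37 of 42 S phase and 36 to 42 of 50 G2/M genes were at least 2-fold higher, the lowest both without pre-BCR cells. Over all genes 8.03% to 19.6% were higher under these alternatives. The fit could not be made without pre-BCR cells, without cells with other markers or with the stricter gate, which left a library under 5 cycling cells, nor with either library left out, since no residual degrees of freedom remained.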
